A study of Mus musculus with 11 samples.

Results

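The genes described here are 8 members of the transforming growth factor beta (TGF-beta) pathway in mouse lung: the ligands Tgfb1, Tgfb2 and Tgfb3, the receptors Tgfbr1, Tgfbr2 and Tgfbr3, the transducer Smad3 and the inhibitor Skil. They were taken by gene symbol from the 31053 genes of the count matrices, and all 8 were found. Cells of dissociated whole lungs had been profiled one by one with 10x Genomics 3′ RNA libraries, 11 in number. The labels give 1 library of wild type mice (WT, +/+), 3 of p21 heterozygotes (p21Het, +/-), 5 of p21 mTert mice (p21mTert, +/mTert) and 2 of p21 mTertCD mice (p21mTertCD, +/mTertCD). The gene p21 (Cdkn1a) encodes an inhibitor of cyclin-dependent kinases, and Tert encodes the catalytic subunit of telomerase. Every group except WT thus carries 1 p21 allele that is not wild type, so that p21Het is the control that shares this with both mTert alleles. The labels do not say what CD stands for or which cells read the allele. Ages were 18 months in 9 libraries, while p21Het_1 was labelled 19 months and p21mTert_1 20 months, although the titles of both say 18. WT_1, p21Het_1 and p21mTert_1 came in an earlier deposit and the other 8 libraries in a later one, which holds all p21mTertCD libraries. Nothing in the labels says how many animals a library holds, and p-values therefore measure the spread between libraries. The labels name no treatment.

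TGF-beta ligands are secreted in a latent complex and are freed by integrins, proteases or mechanical pull. Free ligand binds Tgfbr2, a kinase that recruits and phosphorylates Tgfbr1, which in turn phosphorylates Smad2 and Smad3; these join Smad4 and act on genes in the nucleus. Tgfbr3 (betaglycan) is a co-receptor without a kinase, known above all for presenting the Tgfb2 ligand, and Skil (SnoN) is a nuclear co-repressor that binds SMAD proteins. In lung the pathway is known for its parts in alveolar development, matrix deposition, fibrosis and the restraint of immune cells.

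On GRCm38 with the GENCODE M21 annotation, the ligand genes lie at chr7:25687002-25705077 on the plus strand (Tgfb1), chr1:186622792-186705989 on the minus strand (Tgfb2) and chr12:86056745-86079041 on the minus strand (Tgfb3). The receptor genes lie at chr4:47353222-47414931 on the plus strand (Tgfbr1), chr9:116084293-116175360 on the minus strand (Tgfbr2) and chr5:107106570-107289629 on the minus strand (Tgfbr3). Smad3 lies at chr9:63646767-63757994 on the minus strand and Skil at chr3:31095058-31122577 on the plus strand. All 8 are annotated as protein-coding. A pair of counted genes overlap a member on the opposite strand, Gm29491 at Tgfb2 and Ttll5 at Tgfb3.

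The 250 bases before the start of Tgfb1 and of Tgfb2 are shown because the leading lineages of these ligands differed. Among lineages with 6 or more libraries, these were monocyte-like and alveolar macrophage-like cells for Tgfb1, and mesothelial-like, mural-like and AT1-like cells for Tgfb2. Lymphatic-like cells came next in both orders. Both windows were copied from RefSeq (GRCm38.p6) and run 5′ to 3′ on the gene's own strand, at chr7:25686752-25687001 (plus) and chr1:186705990-186706239 (minus). Capitals mark CAGAC, the core of the SMAD binding element, and TATAAA, the TATA box, each searched on both strands.
Tgfb1: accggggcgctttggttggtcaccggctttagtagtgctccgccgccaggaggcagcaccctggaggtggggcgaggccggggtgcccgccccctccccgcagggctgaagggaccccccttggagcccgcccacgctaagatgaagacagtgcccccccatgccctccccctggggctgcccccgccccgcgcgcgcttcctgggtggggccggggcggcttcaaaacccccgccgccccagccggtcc
Tgfb2: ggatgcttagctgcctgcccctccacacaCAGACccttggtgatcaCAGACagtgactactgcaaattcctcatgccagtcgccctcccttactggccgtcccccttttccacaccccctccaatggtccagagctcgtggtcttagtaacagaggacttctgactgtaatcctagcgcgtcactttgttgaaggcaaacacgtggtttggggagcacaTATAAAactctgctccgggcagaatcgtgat
The Tgfb1 window held 0 matches to either motif and 75.2% G or C. The Tgfb2 window held 2 CAGAC and 1 TATAAA and 53.6% G or C. Among 32851 RefSeq promoter windows of the same length, 42.2% held CAGAC, 12.4% held TATAAA, and the median G and C content was 52.4%, so that CAGAC is common in such windows. Of the 8 members, 5 had an entry in the promoter table; Tgfb3, Tgfbr3 and Skil had none. Matching letters are a description and do not show that a factor binds.

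The libraries held 42038434 to 85988955 unique molecular identifiers (UMIs, each standing for 1 captured RNA molecule). A kept cell had between 1000 and 30000 UMIs, no more than 14% of them mitochondrial, which left 69266 of 81983 barcodes with library medians of 4133 to 6454 UMIs. Mitochondrial UMIs made up a median of 6.30% to 6.58% of a cell in the earlier deposit, against 2.82% to 4.28% in the later one. A cell was given to the lineage of which it held the most distinct markers, at least 3 and at least 2 more than of any other, which placed 61023 cells (88.1%) in 27 lineages. Names carry "-like" because they rest on RNA alone, and the 10 leading genes by fold held at least 1 marker of the lineage itself except in plasma-like cells, which were led by immunoglobulin genes and Jchain and had 0 of their gating markers there. Fibroblast-like cells had 1, and arterial-like cells had 1 beside 1 venous marker, Vwf. General endothelial markers counted here as own markers of each endothelial subtype, so that the 1 of arterial-like cells need not be arterial. Pairs of libraries shared 9 to 83 barcodes, of which 4 to 20 were in kept cells. p21mTertCD_1 stood apart with 102 B-like cells, against up to 2267 in another library, and p21Het_3 held 10 aerocyte-like capillary cells. Levels below are counts per 1000000 UMIs (CPM) in the summed cells of a lineage in a library with at least 20 such cells, and 23 lineages had 6 or more of these libraries. These levels compare lineages for 1 gene; 3′ counts of different genes are not set against each other.

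**Figure D1:**
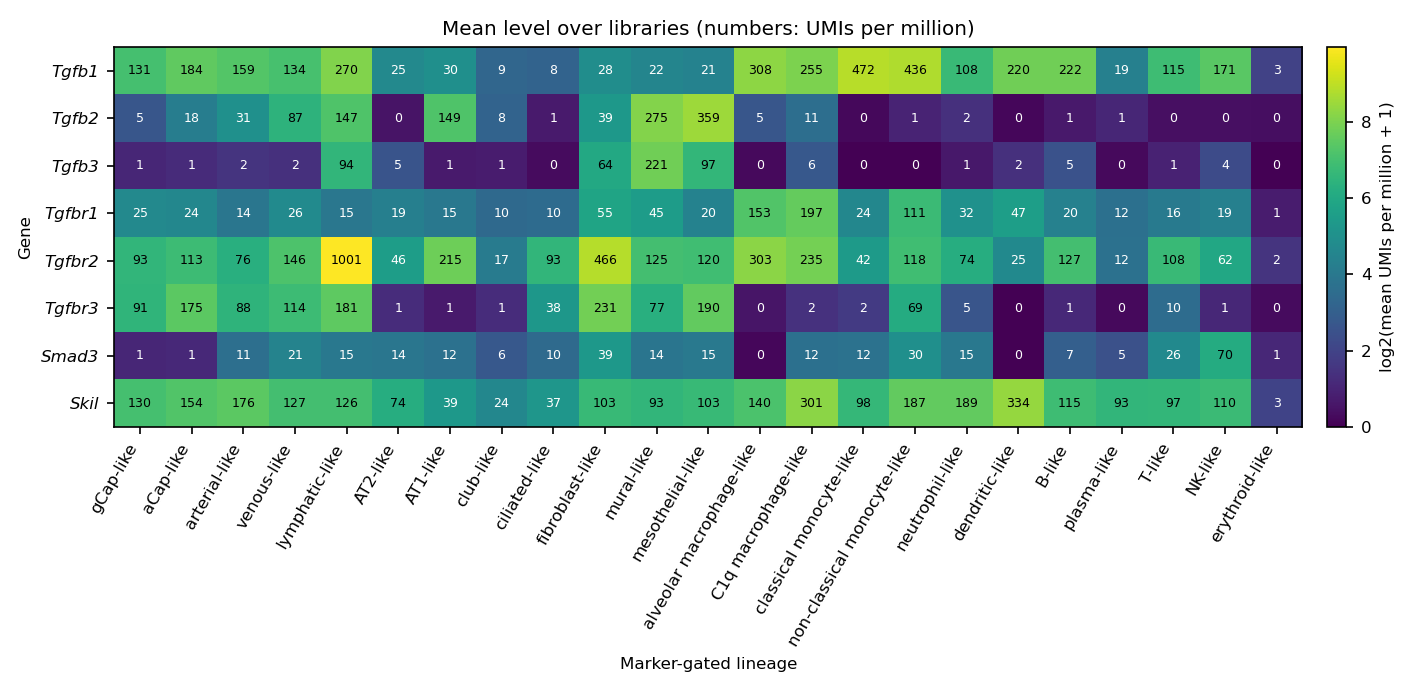
Mean level of each of the 8 genes (rows) in the 23 marker-gated lineages (columns), with the mean CPM over libraries printed in each box and log2(mean + 1) as colour. Tgfb1 was highest in classical monocyte-like cells (472 CPM), Tgfb2 in mesothelial-like cells (359 CPM), Tgfb3 in mural-like cells (221 CPM) and Tgfbr2 in lymphatic-like cells (1001 CPM).

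Tgfb1, known as the main ligand of immune cells, was highest in monocyte-like cells among the 23 lineages of the order. In classical monocyte-like cells its level ran from 403 to 521 CPM with a median of 485 over 11 libraries. Non-classical monocyte-like cells ran from 306 to 590 CPM with a median of 434, so both monocyte lineages overlapped. Their mean log2 difference of 0.13 was below the spread between libraries (exact permutation p = 0.155); within the later deposit it was 0.24 (exact permutation p = 0.0391, not adjusted). Alveolar macrophage-like cells followed at 234 to 380 CPM with a median of 306. They were below non-classical monocyte-like cells in 11 of 11 libraries, by 0.48 on the log2 scale (SD 0.28, exact permutation p adjusted over 176 neighbouring pairs = 0.0172). That step was the one neighbouring pair of 22 in the order of Tgfb1 levels that passed the adjusted threshold, but 12 of the 22 shared 8 or fewer libraries, where the smallest p an exact test allows did not pass. Among these, neutrophil-like cells were above AT1-like cells in 6 of 6 libraries (log2 difference 1.82, SD 0.68) and ciliated-like above erythroid-like cells in 8 of 8 (1.15, SD 1.02). Further down came lymphatic-like cells at 270 ± 25.1 CPM (SD, n = 8), C1q macrophage-like cells at 255 ± 25.7 (n = 11), B-like cells at 222 ± 43.7 (n = 11) and dendritic-like cells at 220 ± 33.0 (n = 8).

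Among the blood vessel lineages, Tgfb1 stood at 184 ± 21.7 CPM in aerocyte-like capillary cells (aCap, n = 10), 159 ± 31.5 in arterial-like cells (n = 10), 134 ± 35.9 in venous-like cells (n = 11) and 131 ± 33.1 in general capillary-like cells (gCap, n = 11). The aerocyte-like level was above the general capillary-like level in 9 of 10 libraries (log2 difference 0.47, exact permutation p adjusted over 2024 pairs of lineages = 0.0141). Epithelial and mesenchymal cells held little: AT1-like cells had 29.8 ± 17.7 CPM (n = 6), fibroblast-like cells 28.3 ± 8.78 (n = 11) and AT2-like cells 24.5 ± 4.32 (n = 11). The lowest level was in erythroid-like cells at 2.91 ± 3.46 CPM (n = 8). Platelet or megakaryocyte-like cells, too few for the order, held Tgfb1 at 647 CPM in p21Het_2, 577 in p21mTert_2, 1335 in p21mTert_5 and 876 in p21mTertCD_2. Platelets are a known store of this ligand, and each of these 4 libraries was above the highest monocyte-like mean. B-like cells gave 18.4% ± 8.11 of all Tgfb1 UMIs of a library (SD, n = 11) while holding 14.3% ± 6.25 of all UMIs, and classical monocyte-like cells gave 12.9% ± 6.61 while holding 5.2% ± 3.45.

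**Figure D2:**
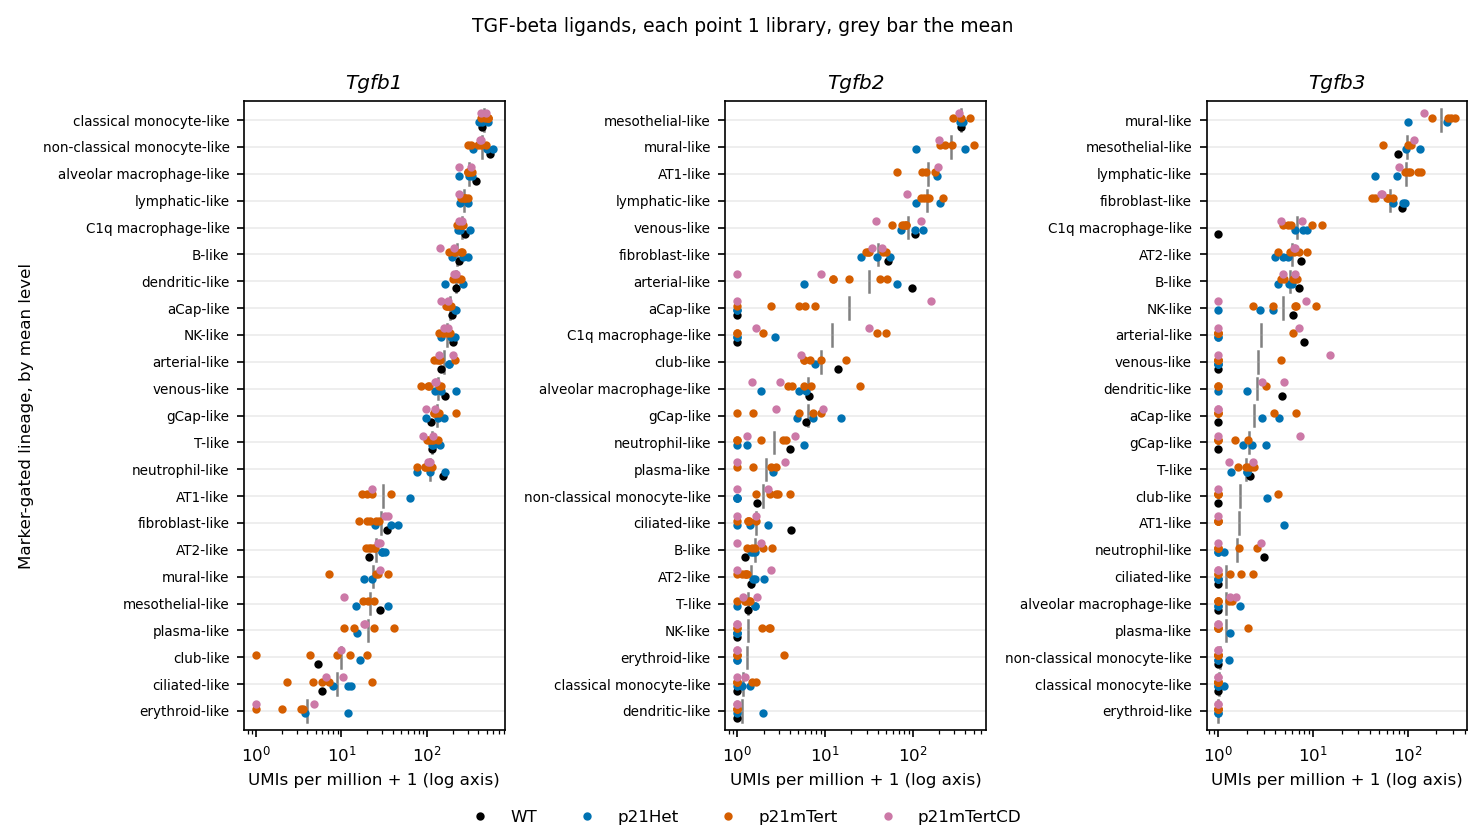
Levels of Tgfb1, Tgfb2 and Tgfb3 as CPM + 1 on a log axis, for 23 lineages ordered by mean within each panel; each point is 1 library coloured by genotype and the grey bar is the mean. Tgfb1 spreads over leukocytes and endothelium, and Tgfb3 drops from 64.4 CPM in fibroblast-like cells to 5.73 in the next lineage.

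Tgfb2 had another pattern, led by mesothelial-like, mural-like, AT1-like and lymphatic-like cells. In mesothelial-like cells, the lining of the lung surface, it ran from 288 to 453 CPM with a median of 357 over 7 libraries. Mural-like cells were led by the smooth muscle genes Acta2, Tagln and Myh11. The gate did not tell pericytes from smooth muscle, or muscle of vessels from that of airways. Tgfb2 in mural-like cells ran from 108 to 501 CPM with a median of 232 over 7 libraries, and so overlapped mesothelial-like cells (log2 difference 0.49, exact permutation p = 0.125 over 5 shared libraries, where no value can pass the threshold). AT1-like cells, the flat gas exchange epithelium, held 66.0 to 194 CPM with a median of 160 over 6 libraries. AT2-like cells, the surfactant-making epithelium of the same alveoli, held 0.442 ± 0.437 CPM (n = 11). The difference between these alveolar lineages was 6.64 on the log2(CPM + 1) scale and was seen in 6 of 6 libraries (exact permutation p adjusted over 2024 pairs = 0.0451, from the smallest p that 6 libraries allow, 0.0313).

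Tgfb2 also separated the endothelial lineages. Lymphatic-like cells held 147 ± 46.0 CPM (n = 8) and venous-like cells 86.7 ± 27.7 (n = 11), while arterial-like cells ranged from 0 to 97.4 CPM with a median of 14.7 over 10 libraries. General capillary-like cells held 5.35 ± 4.13 CPM (n = 11), below venous-like cells in 11 of 11 libraries (log2 difference 4.07, exact permutation p adjusted over 2024 pairs = 0.0051). Venous-like cells were also above fibroblast-like cells, next in the order at 39.0 ± 10.2 CPM, in 11 of 11 libraries (log2 difference 1.10, exact permutation p adjusted over 176 neighbours = 0.0172). The aerocyte-like mean of 17.8 ± 50.3 CPM (n = 10) rests on p21mTertCD_1 at 161 CPM; the other libraries ran from 0 to 6.81. All 23 Tgfb2 UMIs of that library's 27 aerocyte-like cells were in 1 cell. The C1q macrophage-like mean of 11 ± 18.7 CPM (n = 11) was likewise carried by p21mTert_3 at 38.4 CPM, p21mTert_4 at 48.9 and p21mTertCD_2 at 30.9, with 1.69 or less elsewhere. In these libraries 37 of 64, 25 of 78 and 29 of 43 Tgfb2 UMIs came from a single cell, and 6, 6 and 3 cells carried all of them. Macrophages and aerocytes in general are thus not described by those means.

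Tgfb3, a ligand known from mesenchyme, exceeded 6 CPM in 4 of 23 lineages. Mural-like cells held 99.4 CPM in p21Het_1, 261 in p21Het_2, 180 in p21mTert_2, 283 in p21mTert_3, 314 in p21mTert_4, 265 in p21mTert_5 and 147 in p21mTertCD_2. The p21Het and p21mTert libraries overlapped there. Mesothelial-like cells held 96.9 ± 25.5 CPM (n = 7), lymphatic-like cells 94.2 ± 29.0 (n = 8) and fibroblast-like cells 64.4 ± 17.5 (n = 11). The step from fibroblast-like to C1q macrophage-like cells at 5.73 ± 2.99 CPM (n = 11) was 3.44 on the log2 scale, in 11 of 11 libraries (exact permutation p adjusted over 176 neighbours = 0.0172). Within endothelium, lymphatic-like cells stood above general capillary-like cells (1.10 ± 1.84 CPM, n = 11) in 8 of 8 shared libraries (log2 difference 5.98, exact permutation p adjusted over 2024 pairs = 0.0179). AT2-like cells kept a low level of 5.04 ± 1.43 CPM (n = 11), above ciliated-like cells at 0.215 ± 0.429 in 11 of 11 libraries.

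Tgfbr1, the signal-passing kinase receptor, was highest in macrophages. C1q macrophage-like cells ran from 152 to 257 CPM with a median of 192, and alveolar macrophage-like cells from 99.8 to 201 with a median of 151, over 11 libraries each. The lineages overlapped, and the log2 difference of 0.39 had an exact permutation p adjusted over 176 neighbours of 0.0859. Non-classical monocyte-like cells held 111 ± 18.8 CPM (n = 11) and classical monocyte-like cells 23.8 ± 4.10 (n = 11). Tgfbr1 thus differed between both monocyte lineages by 2.18 on the log2 scale in 11 of 11 libraries (exact permutation p adjusted over 2024 pairs = 0.0051), unlike Tgfb1, for which that pair overlapped. Fibroblast-like cells held 55.2 ± 10.9 CPM (n = 11), and the remaining lineages lay between 0.676 and 47.3.

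Tgfbr2, the ligand-binding receptor, stood out in lymphatic-like cells. Its level there was 1006 CPM in p21Het_1, 973 in p21Het_2, 1059 in p21mTert_1, 973 in p21mTert_2, 938 in p21mTert_3, 1128 in p21mTert_4, 1066 in p21mTert_5 and 868 in p21mTertCD_1. Every one of these 8 libraries was above the highest value of any other lineage in the order, 603 CPM in fibroblast-like cells of p21mTertCD_1. Fibroblast-like cells came next at 466 ± 74.8 CPM (n = 11) and were below lymphatic-like cells in 8 of 8 shared libraries (log2 difference 1.13, exact permutation p = 0.0078, adjusted over 176 neighbours 0.0688). The same exact permutation p adjusted over 2024 pairs is 0.0179. Values adjusted over neighbours and over all pairs are therefore not to be ranked against each other. Against the other endothelial lineages the lymphatic-like excess was 2.91 (venous-like) to 3.73 (arterial-like) on the log2 scale, each in 8 of 8 libraries (exact permutation p adjusted over 2024 pairs = 0.0179 each). Among blood vessels, venous-like cells at 146 ± 29.9 CPM were above general capillary-like cells at 93.3 ± 8.98 in 11 of 11 libraries (log2 difference 0.62, exact permutation p adjusted over 2024 pairs = 0.0051). Alveolar macrophage-like cells held 303 ± 52.8 CPM (n = 11) and C1q macrophage-like cells 235 ± 38.3 (n = 11). AT1-like cells held 215 ± 35.2 CPM (n = 6) against 46.4 ± 3.36 in AT2-like cells (n = 11), a log2 difference of 2.15 in 6 of 6 libraries (exact permutation p adjusted over 2024 pairs = 0.0451).

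**Figure D3:**
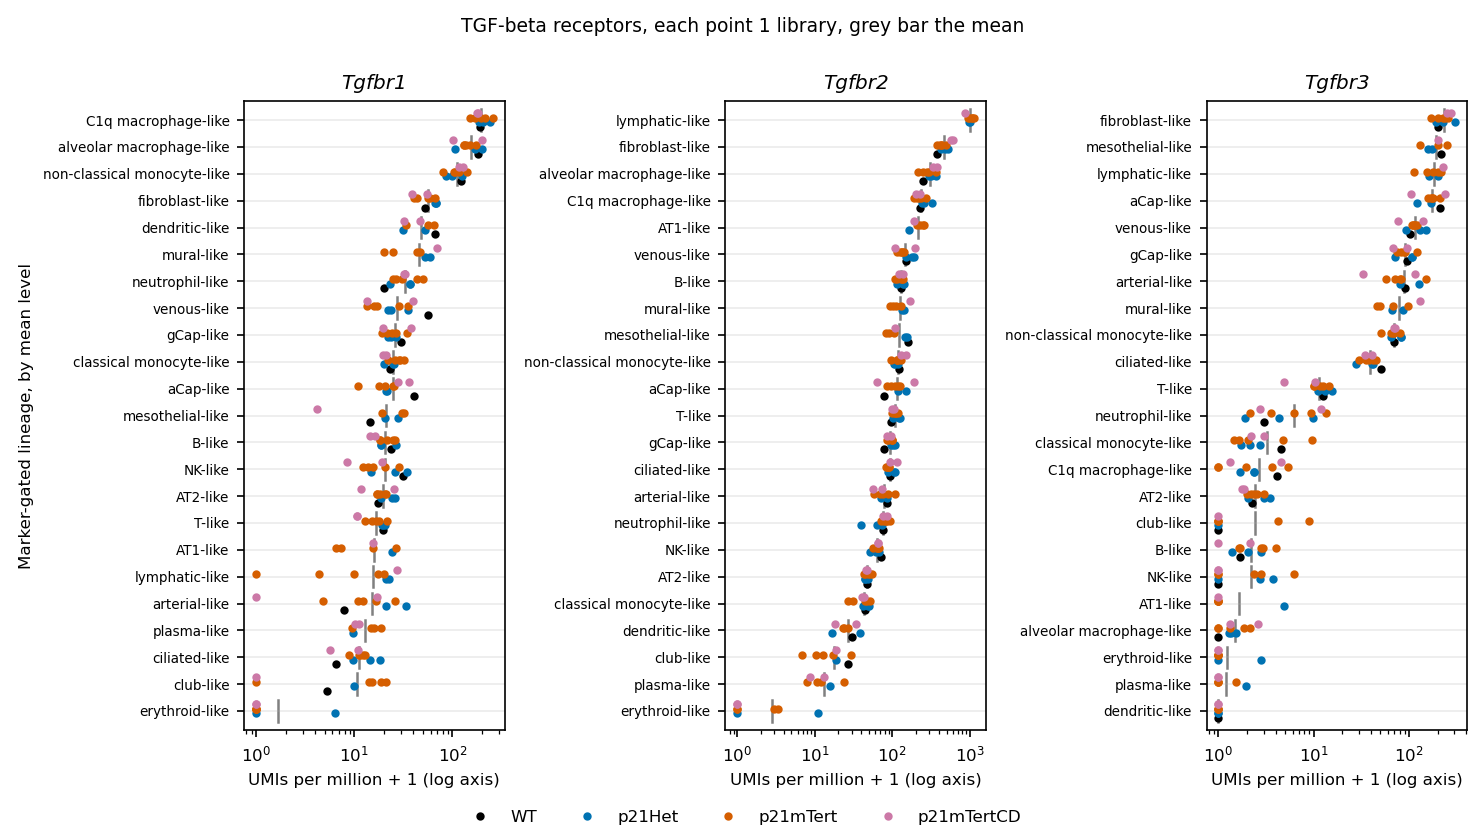
Levels of Tgfbr1, Tgfbr2 and Tgfbr3 as CPM + 1 on a log axis, for 23 lineages ordered by mean within each panel; each point is 1 library coloured by genotype and the grey bar is the mean. Tgfbr1 is led by macrophage-like cells, Tgfbr2 by lymphatic-like cells at 868 to 1128 CPM, and Tgfbr3 falls to 0 CPM in dendritic-like cells.

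Tgfbr3, the co-receptor, marked mesenchyme, endothelium and 1 monocyte lineage. Fibroblast-like cells ran from 169 to 305 CPM with a median of 229 over 11 libraries, followed by mesothelial-like cells at 190 ± 39.7 (n = 7), lymphatic-like cells at 181 ± 38.3 (n = 8) and aerocyte-like cells at 175 ± 41.0 (n = 10). These 4 overlapped, and their neighbouring pairs shared 8 or fewer libraries, where even the smallest p did not pass after adjustment. Aerocyte-like cells were above venous-like cells (114 ± 21.3 CPM, n = 11) in 10 of 10 libraries (log2 difference 0.64, exact permutation p adjusted over 176 neighbours = 0.0286). They were also above general capillary-like cells (90.6 ± 16.6 CPM, n = 11) in 10 of 10 (log2 difference 0.95, exact permutation p adjusted over 2024 pairs = 0.0077). Non-classical monocyte-like cells held 69.4 ± 9.33 CPM (n = 11), while classical monocyte-like cells held 2.25 ± 2.35 and alveolar macrophage-like cells 0.487 ± 0.510. The difference between both monocyte lineages was 4.67 on the log2(CPM + 1) scale in 11 of 11 libraries (exact permutation p adjusted over 2024 pairs = 0.0051). Of the epithelial lineages, ciliated-like cells held 37.9 ± 6.67 CPM (n = 11), above AT2-like cells (1.41 ± 0.548) in 11 of 11 libraries. No Tgfbr3 UMI was found in the 320 dendritic-like cells of all libraries together, which allows up to 0.691 CPM (upper end of the 95% exact Poisson interval, counting error only).

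Smad3, a transducer activated by the receptor kinase, was highest in natural killer-like (NK-like) cells. It ran there from 45.9 to 102 CPM with a median of 70.1 over 11 libraries. NK-like cells were above fibroblast-like cells, next at 38.9 ± 9.17 CPM, in 10 of 11 libraries (log2 difference 0.83, exact permutation p adjusted over 176 neighbours = 0.0286). T-like cells held 25.9 ± 5.75 CPM (n = 11) and B-like cells 7.13 ± 1.27 (n = 11), so that the lymphocyte lineages stood in 3 steps; NK-like cells were above T-like cells, and T-like above B-like cells, in 11 of 11 libraries (exact permutation p adjusted over 2024 pairs = 0.0051 each). Alveolar macrophage-like cells, with a median of 20075 UMIs a cell, held Smad3 at 0.144 ± 0.169 CPM (n = 11), and dendritic-like cells at 0 in the 8 libraries with at least 20 such cells; all 320 of them together held 1 Smad3 UMI (upper end of the 95% exact Poisson interval 1.04 CPM). Both capillary lineages were near the floor, at 1.21 ± 1.41 CPM in aerocyte-like cells (n = 10) and 1.09 ± 1.45 in general capillary-like cells (n = 11). Venous-like cells at 21.3 ± 8.70 CPM (n = 11) were above general capillary-like cells in 11 of 11 libraries (log2 difference 3.56, exact permutation p adjusted over 2024 pairs = 0.0051).

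Skil, the SMAD co-repressor, was present in almost every lineage. Dendritic-like cells ran from 189 to 489 CPM with a median of 365 over 8 libraries, and C1q macrophage-like cells from 255 to 410 with a median of 282 over 11. The pair overlapped (log2 difference 0.12, exact permutation p = 0.484). C1q macrophage-like cells were above neutrophil-like cells (189 ± 24.5 CPM, n = 11) in 11 of 11 libraries (log2 difference 0.66, exact permutation p adjusted over 176 neighbours = 0.0172). No other neighbouring pair in this order passed, but 12 of the 22 shared 8 or fewer libraries, where even the smallest p did not pass. Of those, mural-like cells were above AT2-like cells in 7 of 7 libraries (log2 difference 0.32, SD 0.23) and AT2-like above AT1-like cells in 6 of 6 (1.33, SD 1.46). AT2-like (73.8 ± 7.36 CPM, n = 11), AT1-like (38.8 ± 28.1 CPM, n = 6), ciliated-like (36.8 ± 7.38, n = 11), club-like (23.8 ± 18.8, n = 8) and erythroid-like cells (2.99 ± 3.31, n = 8) closed the order.

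**Figure D4:**
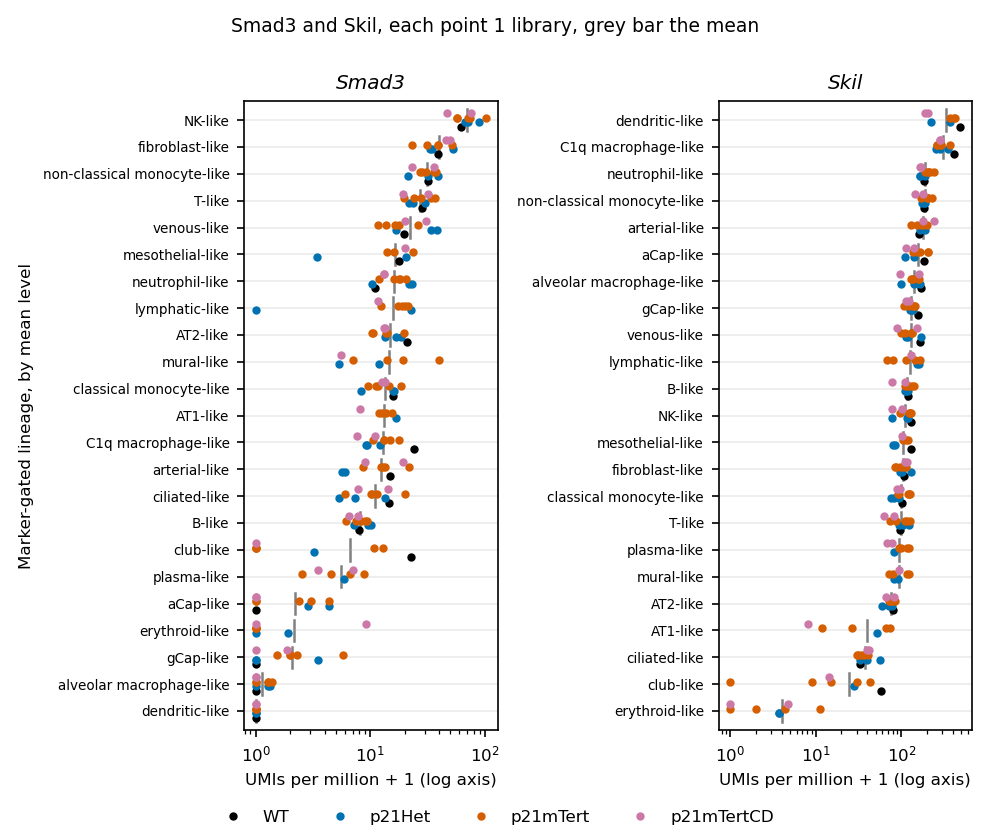
Levels of Smad3 and Skil as CPM + 1 on a log axis, for 23 lineages ordered by mean within each panel; each point is 1 library coloured by genotype and the grey bar is the mean. Smad3 spans from 69.5 CPM in natural killer-like cells to 0 in dendritic-like cells, which hold the highest mean of Skil at 334 CPM.

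Over all 8 genes, 12 of 176 neighbouring lineages in the orders of levels differed after adjustment, 3 each for Tgfbr2 and Tgfbr3 and 1 for each of the others. Among all pairs of lineages 1404 of 2024 differed, from 129 of 253 for Tgfb3 to 213 of 253 for Tgfb1. The count of neighbours is a lower limit on the steps. In 94 of the 176 pairs 8 or fewer libraries were shared, where the smallest p gave an adjusted p of at least 0.0688, and in 10 of these 94 every shared library was higher in the upper lineage, as for Tgfbr2 in lymphatic-like over fibroblast-like cells. With at least 50 cells a lineage and library the count was 37, and in the later deposit alone, which has 8 libraries, it was 0.

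Cells of different lineages differ in depth, so the share of cells with a UMI was also taken after thinning each cell to 1000 UMIs. Erythroid-like cells, with a median of 5079 UMIs a cell, served as the background, with thinned shares of 0.24% for Tgfb1, 0.02% for Tgfb2, 0% for Tgfb3, 0.06% for Tgfbr1, 0.22% for Tgfbr2, 0.01% for Tgfbr3, 0.21% for Smad3 and 0.29% for Skil. Tgfbr2 was seen in 64.1% of thinned lymphatic-like cells (96.2% before thinning) and in 34.3% of thinned fibroblast-like cells (83.9% before). Tgfb1 was seen in 36.6% of thinned classical monocyte-like cells (96.8% before). Tgfb2 reached 24.6% in mesothelial-like and 18.8% in mural-like cells (74.1% and 57.8% before). Smad3 was seen in 7.17% of thinned NK-like cells (29.8% before), against 0.10% in general capillary-like and 0.01% in alveolar macrophage-like cells. The erythroid-like share of Smad3 cannot serve to judge these low shares, since it rests on 1 UMI in the 23 cells of p21mTertCD_2 (1.48% after thinning) and 1 in the 288 cells of p21Het_2 (0.161%), with 0 in the other 6 libraries. Median depth was 5759 UMIs a cell in lymphatic-like, 8776 in fibroblast-like, 11650 in classical monocyte-like and 4992 in NK-like cells.

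The genes whose mean log2(CPM + 1) over the 23 lineages was most like that of each member were sought among 8169 genes with at least 50 CPM in a lineage. Points of such a correlation share libraries and depth, and it is given as a description. For Tgfb1 they were Apaf1, Ikbkb and Rnf115 (Pearson r = 0.92 each), and for Tgfb2 Fbln5 (0.89), Ahnak2 (0.87) and Cyr61 (0.87). Tgfb3 was most like Osr1 (0.93), Sema3d (0.92) and Adamts15 (0.92). Tgfbr1 was most like Gusb (0.87), Ctsz (0.86) and Abhd12 (0.86), Tgfbr2 like Rab3gap2, Dlg1 and Zswim8 (0.89 each), and Tgfbr3 like Mpdz (0.90), Il17rd (0.89) and Slc43a3 (0.89). The closest genes to Skil were Hivep1, Gnai2 and Ppm1m (0.91, 0.91 and 0.91), whereas Smad3 had no close match, with Flt3l at 0.72, Ssbp2 at 0.69 and Agpat2 at 0.66.

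The rest of the pathway was followed in a list of 42 genes that includes the members. Of the genes that hold or free latent ligand, Ltbp4 was highest in fibroblast-like cells (1360 ± 173 CPM) and lymphatic-like cells (1137 ± 202), Itgb6, a chain of an activating integrin, in AT1-like cells (426 ± 102), and Nrros, which anchors latent ligand on myeloid cells, in non-classical monocyte-like cells (234 ± 36.4). Lrrc32, the anchor on other cells, was highest in mural-like cells (175 ± 55.5) and then general capillary-like cells (141 ± 21.8). The endothelial receptors Acvrl1 and Eng led in aerocyte-like cells (1756 ± 348) and general capillary-like cells (1265 ± 222). Smad7, the inhibitory SMAD, was highest in arterial-like cells (757 ± 103). Pmepa1, which sequesters Smad2 and Smad3, was highest in fibroblast-like cells (561 ± 123), and Ski, the relative of Skil, in alveolar macrophage-like cells (236 ± 38.0). Smad2 and Smad4 peaked at 43.7 ± 15.9 CPM in lymphatic-like and 129 ± 11.3 in ciliated-like cells. Of genes known to respond to the pathway, Ctgf, Acta2 and Tagln were highest in mural-like cells, Col1a1 and Col3a1 in fibroblast-like cells, Cdkn2b in AT1-like cells (204 ± 39.8) and Itgae, the CD103 integrin chain, in dendritic-like cells (277 ± 46.9).

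Genotypes were compared with edgeR's quasi-likelihood test on UMIs summed per library, in all kept cells and in 7 lineages, with p-values adjusted over all genes of a fit (Benjamini-Hochberg) and a threshold of 0.05. WT, with 1 library, was in no test. Of 156 tests of members, 0 passed, 18 had an unadjusted edgeR p under 0.05 (5 higher and 13 lower, 11.5% against 6.59% over all genes), and DESeq2 called 2. Calls by edgeR were rare over all genes. In p21mTert against p21Het the share of all tested genes called was 0.0114% in all cells, 0.0105% in general capillary-like, 0.0687% in AT2-like, 0.011% in fibroblast-like, 0.00959% in alveolar macrophage-like, 0.157% in classical monocyte-like, 0.0514% in B-like and 0.016% in T-like cells. In p21mTert against p21mTertCD it was, in the same order, 0.00571%, 0.126%, 0.0258%, 0.011%, 0%, 0.145%, 0.00856% and 0.00802%. In p21mTertCD against p21Het it was 0.12%, 0.0421%, 0%, 0%, 0%, 1.05%, 0% and 0.0642%. A count of 0 members is therefore near the background of each comparison. These shares are those of edgeR. The share of all genes that DESeq2 called is not given here. Its calls of members and, below, of pathway genes can therefore not be set against a background. The 3 comparisons share libraries, so their values are not independent. Whether a genotype difference itself differed between lineages was not tested, and tests of all cells cannot tell fewer cells of a type from less RNA per cell.

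For p21mTert against p21Het, each member was followed in the fitted lineage where it was highest, and none passed the adjusted threshold. Tgfb3, highest in fibroblast-like cells, had the largest of these 8 differences, -0.60 on the log2 scale (SE 0.20), and its libraries are given further on. Tgfb1 in classical monocyte-like cells differed by 0.19 (SE 0.10, edgeR adjusted p = 0.713), or 0.12 with scaling by library size only. In fibroblast-like cells Tgfb2 differed by -0.09 (SE 0.24), Tgfbr2 by -0.14 (SE 0.15), Tgfbr3 by -0.15 (SE 0.17) and Smad3 by -0.15 (SE 0.23), each with an edgeR adjusted p of 0.917 or more and a difference smaller than its SE. That of Tgfbr2 was -0.03 without p21Het_2 and -0.25 without p21Het_1. In alveolar macrophage-like cells Tgfbr1 differed by -0.06 (SE 0.21) and Skil by 0.14 (SE 0.16), with edgeR adjusted p of 0.966 and 0.878; Skil was 0.01 without p21Het_2 and 0.30 without p21Het_3. General capillary-like cells had 5 members with enough UMIs to test, and their differences lay between -0.10 and 0.12 (Tgfb1 0.12, SE 0.18; Tgfbr2 -0.10, SE 0.13).

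**Figure D5:**
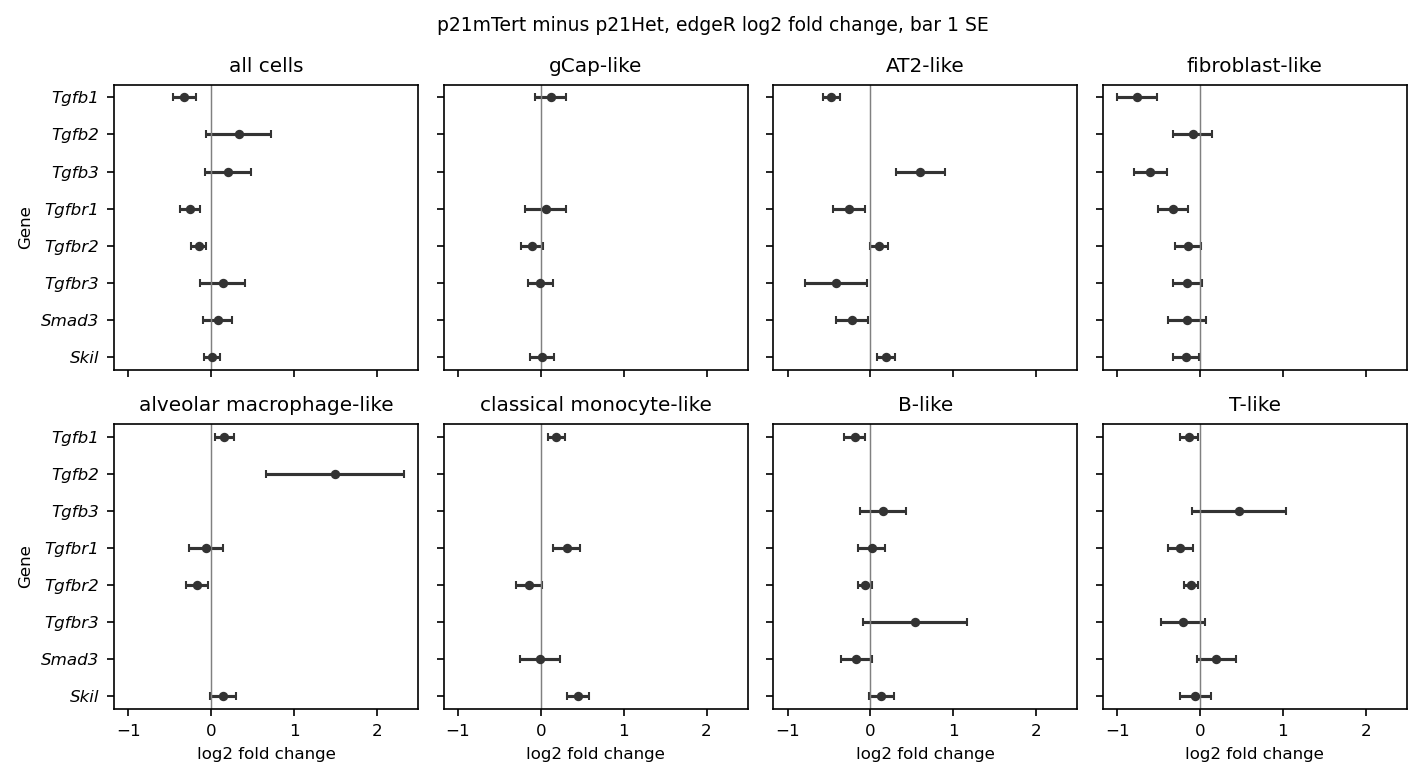
Log2 fold change of p21mTert over p21Het for each member with enough UMIs, in all cells and in 7 lineages; points are edgeR estimates, bars are 1 standard error, and the vertical line marks no difference. Tgfb1 in AT2-like cells (-0.47) and Tgfb1 and Tgfb3 in fibroblast-like cells (-0.76 and -0.60) lie below 0, and none passed adjustment over all genes.

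The lowest unadjusted p for a member was that of Tgfb1 in AT2-like cells. It was 29.2, 29.2 and 31.4 CPM in the 3 p21Het libraries, 23.7, 21.4, 18.5, 20.1 and 22.9 in the 5 p21mTert libraries, and 26.1 and 27.1 in the 2 p21mTertCD libraries. The p21mTert libraries were all below those of both other groups, while WT held 20.2 CPM (95% exact Poisson interval 16.4 to 24.7, counting error only). The log2 difference was -0.47 against p21Het (SE 0.10, edgeR adjusted p = 0.23, unadjusted 0.000474) and -0.34 against p21mTertCD (SE 0.12, edgeR adjusted p = 0.588; -0.22 without the cells of highest doublet scores). The 8 alveolar macrophage markers, all detected in these AT2-like cells but for Fabp1 and Cidec at 0 in p21mTertCD, summed to 53.0 to 105 CPM in p21Het, 28.2 to 57.8 in p21mTert and 38.7 to 114 in p21mTertCD. In the same order, classical monocyte markers had means of 614, 552 and 658 CPM, and neutrophil markers 205, 210 and 225. Means were 37.9, 38.2 and 24.9 CPM for B markers and 9.09, 12.9 and 16.7 for T markers. In each list, alveolar macrophage included, the p21mTert range overlapped those of both other groups. The part of any of these cells in the difference was not tested. Leaving out the cells with the highest doublet scores gave -0.36 (edgeR adjusted p = 0.563, with 0.12 to 1.00 over all alternatives).

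In fibroblast-like cells, Tgfb1 was 37.4, 44.5 and 23.8 CPM in the p21Het libraries and 15.2, 20.9, 24.7, 19.1 and 26.2 in the p21mTert libraries, with 34.4 and 31.7 for p21mTertCD. p21Het_3 lay among the p21mTert libraries, so the groups overlapped, and the counts behind these values were small, at 6 to 59 UMIs. The log2 difference was -0.76 against p21Het (SE 0.24, edgeR adjusted p = 0.559), and -0.45 without p21Het_2 (edgeR adjusted p = 0.75, with 0.177 to 0.999 over all alternatives). Against p21mTertCD it was -0.64 (SE 0.27, edgeR adjusted p = 1). The alveolar macrophage markers summed to 10.6 to 32.9 CPM in p21Het, 1.61 to 7.58 in p21mTert and 6.44 to 52.3 in p21mTertCD fibroblast-like cells, so that they were also lower in p21mTert in the mean. The classical monocyte markers summed to 357 to 476, 341 to 406 and 323 to 388. Of the former 8 markers Siglecf was at 0 in p21Het and p21mTert, and Cidec in p21mTert and p21mTertCD; of the latter 8, F13a1 was at 0 in p21Het and p21mTertCD and Ly6i in p21mTert. In p21Het, p21mTert and p21mTertCD, B markers had means of 100, 66.3 and 80.3 CPM. Means were 10.5, 8.50 and 10.8 CPM for T markers and 26.6, 23.8 and 19.2 for neutrophil markers. In these lists the p21mTert ranges overlapped those of both other groups. Pax5, Lat and Trem1 were at 0 in p21mTertCD, and Trem1 and Mmp9 in p21Het. The part of any of these cells in both differences was not tested.

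Tgfb3 in fibroblast-like cells was 87.8, 68.4 and 91.2 CPM in p21Het, 68.3, 61.0, 59.2, 40.7 and 43.7 in p21mTert, 52.3 and 51.0 in p21mTertCD and 84.9 in WT. The lowest p21Het library was just above the highest p21mTert library. The log2 difference from p21Het was -0.60 for p21mTert (SE 0.20, edgeR adjusted p = 0.592, with 0.189 to 0.999 over all alternatives; -0.33 with a replicate block, -0.70 to -0.47 when 1 library was left out) and -0.64 for p21mTertCD (SE 0.24, edgeR adjusted p = 1). Mural markers, of a lineage with more Tgfb3, summed to 66.1 to 110 CPM in p21Het and 77.0 to 98.3 in p21mTert fibroblast-like cells, so these ranges overlapped; Higd1b and Cox4i2 were at 0 in both groups and Trpc6 in p21Het. In p21mTertCD they summed to 61.2 to 182 CPM, with Higd1b and Trpc6 at 0. Mesothelial markers, of another lineage with more Tgfb3, summed to 109 to 163 CPM in p21Het, 116 to 191 in p21mTert and 167 to 204 in p21mTertCD, so that p21mTertCD lay above p21Het without overlap. Endothelial markers summed to 37.4 to 50.2 CPM in p21Het, 32.3 to 45.5 in p21mTert and 29.5 to 35.7 in p21mTertCD, here with p21mTertCD below p21Het. Lrrn4 was at 0 in all 3 groups, Msln in p21Het, Upk3b, Wt1 and Gpm6a in p21mTertCD, Tie1 in p21Het and Robo4 in p21Het and p21mTertCD. The part of these cells in the Tgfb3 differences was not tested. Tgfbr2 in the same cells was 603 and 570 CPM in p21mTertCD against 373 to 495 in p21mTert (log2 difference -0.48 for p21mTert minus p21mTertCD, SE 0.17, edgeR adjusted p = 0.964).

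In T-like cells, Tgfbr1 was 18.4, 18.5 and 19.5 CPM in the p21Het libraries and 20.8, 12.0, 15.8, 16.9 and 14.2 in the p21mTert libraries, with 9.79 and 9.66 for p21mTertCD. Both p21mTertCD libraries were below all others, including WT at 18.6 (95% exact Poisson interval 15.3 to 22.3). The log2 difference was -0.88 for p21mTertCD minus p21Het (SE 0.19, edgeR adjusted p = 0.103), which DESeq2 called with an adjusted p of 0.00885; over all alternatives the adjusted p ran from there to 0.489. For p21mTert minus p21mTertCD it was 0.65 (SE 0.18, edgeR adjusted p = 0.255). Within the later deposit the difference from p21Het was -0.94 (edgeR adjusted p = 0.203). Tgfbr3 in T-like cells was 3.93 and 9.21 CPM in p21mTertCD and 10.1 to 14.7 in p21Het (log2 difference -0.85, SE 0.34, edgeR adjusted p = 0.298). That value rests on p21mTertCD_1: without p21mTertCD_2 it was -1.62 (edgeR adjusted p = 0.0129), and without p21mTertCD_1 it was -0.33 (edgeR adjusted p = 0.753), the ends of the range over all alternatives. NK markers, all 8 detected, summed to 139 to 423 CPM in p21Het and 367 to 667 in p21mTertCD T-like cells. C1q macrophage markers, of the lineage with the most Tgfbr1, summed to 19.4 to 37.5 CPM in p21Het and 6.07 to 33.6 in p21mTertCD. In the same order, alveolar macrophage markers summed to 11.9 to 91.7 and 14.8 to 72.1. B markers summed to 18.1 to 59.5 and 10.4 to 25.8, and neutrophil markers to 90.8 to 127 and 94.3 to 122. Both groups overlapped in each list, and the part of these cells was not tested.

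Tgfbr2 in all kept cells was 153 and 143 CPM in p21mTertCD, 130, 104, 110, 127 and 122 in p21mTert, and 132, 133 and 116 in p21Het. Both p21mTertCD libraries were above all others. The log2 difference was -0.40 for p21mTert minus p21mTertCD (SE 0.10, edgeR adjusted p = 0.208), called by DESeq2 with an adjusted p of 0.0127 (up to 0.697 over all alternatives), and 0.25 for p21mTertCD minus p21Het (SE 0.11, edgeR adjusted p = 0.793). The latter was 0.15 without p21mTertCD_1 and 0.38 without p21mTertCD_2. Tgfb1 in all kept cells was -0.33 for p21mTert minus p21Het (SE 0.14, edgeR adjusted p = 0.672), and -0.20 without p21Het_3. Of the lineages rich in Tgfb1, some had a lower and some a higher mean share of kept cells in p21mTert. Classical monocyte-like cells made up 0.729% to 3.26% (mean 2.06%) in p21mTert against 1.18% to 7.43% (mean 4.17%) in p21Het, and alveolar macrophage-like cells 1.94% to 3.42% (mean 2.72%) against 3.05% to 4.18% (mean 3.62%). B-like cells, the source of the most Tgfb1 UMIs, made up 20.3% to 29.5% (mean 23.6%) against 11.8% to 36.5% (mean 21.1%), lymphatic-like cells a mean of 0.442% against 0.396%, and platelet or megakaryocyte-like cells 0.401% against 0.381%. Alveolar macrophage-like cells, which also hold much Tgfbr2, made up 3.45% to 4.54% in p21mTertCD. Mean shares in p21mTertCD, p21mTert and p21Het were 2.11%, 1.85% and 1.38% for fibroblast-like and 2.99%, 1.76% and 2.13% for C1q macrophage-like cells. T-like cells had 30.7%, 19.2% and 14.8%. Lymphatic-like cells, highest in Tgfbr2, went the other way, with 0.368%, 0.442% and 0.396%. The part of these shares in the all-cell differences was not tested. In classical monocyte-like cells Skil was 82.1, 74.8 and 91.8 CPM in p21Het and 120, 90.8, 121, 124 and 92.3 in p21mTert, with p21mTert_2 within the p21Het range (log2 difference 0.45, SE 0.13, edgeR adjusted p = 0.385). Tgfbr1 in the same cells differed by 0.42 for p21mTert minus p21mTertCD (SE 0.18, edgeR adjusted p = 0.774). In B-like cells Tgfb1 differed by -0.44 for p21mTertCD minus p21Het (SE 0.16, edgeR adjusted p = 1), by -0.25 without p21mTertCD_1, which held 102 of these cells, and by -0.76 without p21mTertCD_2. Plasma markers in these B-like cells summed to 372 to 433 CPM in p21Het and 459 to 471 in p21mTertCD, without overlap, with all 8 detected but for Prg2 at 0 in p21mTertCD, and plasma-like cells held Tgfb1 at 19.4 ± 10.3 CPM (SD, n = 7). Their part in the difference was not tested. In alveolar macrophage-like cells Tgfbr2 differed by -0.36 for p21mTert minus p21mTertCD (SE 0.15, edgeR adjusted p = 0.887), by -0.20 without p21mTertCD_1 and by -0.52 without p21mTertCD_2. Venous markers in these cells summed to 249 to 380 CPM in p21mTert and 400 to 508 in p21mTertCD, without overlap, with all 6 detected but for Ackr1 at 0 in p21mTertCD. Venous-like cells held less Tgfbr2 than alveolar macrophage-like cells. Lymphatic markers, of the lineage with the most Tgfbr2, summed to 8.80 to 13.4 CPM in p21mTert and 9.04 to 12.6 in p21mTertCD, which overlapped. Of these, Nts was at 0 in both groups and Reln in p21mTertCD. Their part in the difference was not tested.

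Of the 42 pathway genes, in 810 tests over the same fits, 0 passed with edgeR, 67 had an unadjusted p under 0.05 (26 higher and 41 lower, 8.27% against 6.59% over all genes, which is near the background), and DESeq2 called 5. The lowest edgeR adjusted p was 0.0847, for Itgae in general capillary-like cells (log2 difference -3.68 for p21mTert minus p21mTertCD, SE 0.76). Its level there was low, at 3.88 ± 5.10 CPM (SD) over libraries, against 277 ± 46.9 in dendritic-like cells. Markers of other cell types were not summed in general capillary-like cells. For p21mTert minus p21Het, the median log2 difference of the list was 0.0063 in all cells and -0.066 in general capillary-like cells, against 0.015 and -0.0023 over all genes tested. In fibroblast-like cells it was -0.15 over 38 list genes, against -0.0067 over all genes.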

How the data were processed

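Single-cell 3′ RNA of dissociated lung was measured in 11 libraries (1 WT, 3 p21Het, 5 p21mTert, 2 p21mTertCD). The deposited matrices hold raw UMI counts per gene and barcode, made by the authors with Cell Ranger on mm10, per the labels; the file headers give software version 3.1.0 and the series text another. The filters and scran normalization in that text were not in the deposited counts, so the filter was applied here: 1000 to 30000 UMIs and at most 14% mitochondrial UMIs. Cells were gated by markers (at least 3, with a lead of 2; endothelial subtypes at least 2 without a tie; 212 of 213 markers found), and 8243 cells stayed ungated. Doublets were kept in; leaving out the highest Scrublet scores (scanpy 1.11.5), 4.55% to 8.42% of cells, was an alternative, because its own thresholds marked 0.03% to 3.59%. UMIs were summed per library and lineage. Lineage differences in log2(CPM + 1) were tested by exact 2-sided sign-flip permutation over libraries, and genotypes with edgeR 4.0.16 (filterByExpr, TMM, quasi-likelihood, 10 libraries in 1 fit) in R 4.3.3, with DESeq2 1.42.0 as alternative. Scripts were tested on simulated data. Intervals are 95% exact Poisson and cover counting error only.

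The members and the lists were chosen with earlier results of these data known. Named values are those of all 8 members by lineage, the p21mTert minus p21Het difference in the fitted lineage with the highest level, any member with an unadjusted p under 0.05, and the 3 genes most like each member. The alternatives were other normalizations, filters, gates, a pseudocount of 0.1 or 10, at least 50 cells, a deposit term, the later deposit alone, WT in the fit, a replicate block, and leaving out each library. Leaving out shared barcodes (1482 kept cells) was chosen after seeing the data.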

Additional observations from a re-analysis of the deposited data

Results flagged for a closer look

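Among 25 pairs of a gene and a lineage, examined in the p21mTert libraries alone, 1 held a library far from the others. Chance gives about 1 in 20 for a pair chosen beforehand. The flagged pair was examined because its unadjusted edgeR p was under 0.05 in these same libraries, so that rate does not apply to it. Tgfb2 in alveolar macrophage-like cells was 24.2 CPM in p21mTert_2, against 2.76 to 5.94 CPM in the other p21mTert libraries and 0.484 and 2.11 in p21mTertCD, a gap of 0.852 of the group's range. The library held 77 Tgfb2 UMIs in 13 of 146 cells, of which 30 were in 1 cell. The log2 difference of p21mTert minus p21mTertCD was 2.82 (SE 1.10, edgeR adjusted p = 0.887), and 1.76 without p21mTert_2 (edgeR adjusted p = 0.989, with 0.424 to 1.00 over all alternatives). Markers of mural-like cells, where Tgfb2 is high, summed to 3.12 to 27.9 CPM in the alveolar macrophage-like cells of p21mTert and 5.00 to 8.40 in p21mTertCD; 6 of the 8 were detected in each group, with Trpc6 at 0 in both, Higd1b at 0 in p21mTert and Cox4i2 in p21mTertCD. Markers of the other lineages with much Tgfb2 overlapped between p21mTert and p21mTertCD or were lower in p21mTert: mesothelial markers summed to 0.31 to 2.37 and 0.48 to 2.37 CPM, AT1 markers to 41.5 to 65.1 and 59.5 to 61.7, lymphatic markers to 8.80 to 13.4 and 9.04 to 12.6, and venous markers to 249 to 380 and 400 to 508. The part of any of these cells in the value was not tested.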

How the results depend on the processing

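Of 541 counts of members or of neighbouring pairs recomputed under the alternatives, 535 were the same or within 1.5 times of their value. All counts of members were 0 in the main fits, so for them the same means 0 again. With calls so rare over all genes this was likely beforehand, and it says little about robustness. The count of members called was 1 in place of 0 in T-like cells for p21mTertCD minus p21Het with DESeq2 (Tgfbr1) and without p21mTertCD replicate 2 (Tgfbr3), and in all cells for p21mTert minus p21mTertCD with DESeq2 (Tgfbr2). In T-like cells for p21mTert minus p21mTertCD, leaving out a replicate gave 0 to 1 members (Tgfbr3, without p21mTertCD replicate 2), where the lone p21mTertCD library is assumed to vary like the other groups. Neighbouring pairs that differed numbered 12, 10 to 15 when a replicate was left out, 37 with at least 50 cells, which drops small lineages, and 0 in the later deposit alone, where 8 libraries allow no p below 0.0078.

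Of 544 member differences, 6 changed sign, each small. Leaving out 1 replicate at a time gave -0.28 to 0.066 for Smad3, -0.26 to 0.043 for Tgfbr3 and -0.34 to 0.15 for Tgfb2 in fibroblast-like cells, and -0.23 to 0.13 for Tgfbr1 in alveolar macrophage-like cells. Each sign changed without p21Het replicate 3, except that of Tgfb2, which changed without p21Het replicate 1, with a deposit term (0.017) and in the later deposit alone (0.094). The cause was not tested. Of 147 differences between the highest lineage and the next, 143 kept their side of the threshold.

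With a replicate block 0 members were called in every fit and the block changed no call. By the criterion of over 0.1 in every pair, the numbers do not pair the libraries: deviations of same-numbered libraries correlated at -0.60 to 0.40, with 17 of 56 values over 0.1. Of these, 8 came from p21Het_1 with p21mTert_1, both of the earlier deposit, which correlated at 0.15 to 0.40 in all 8 fits. Leaving out shared barcodes changed no count. Levels under about 1 CPM rest on few UMIs.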
